A study of Mus musculus with 15 samples.

Results

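A set of 9 genes of the Hox family and its TALE partners was followed across the leukemia lines, namely *Hoxa13*, *Hoxa9*, *Hoxa10*, *Hoxa7*, *Meis1*, *Pbx2*, *Pbx3*, *Pbx4* and *Pbxip1*. The set is a fixed list of names, chosen with earlier results of these data known. Of these 9 genes, 5 are among the 12545 genes of the deposited table (*Hoxa13*, *Pbx2*, *Pbx3*, *Pbx4* and *Pbxip1*). *Hoxa9*, *Hoxa10*, *Hoxa7* and *Meis1* have no row, so no level is given for them. Every gene in the table reaches at least 1.01 CPM (the reads of a gene scaled to all reads assigned to genes in the line) in at least 1 line, and the rule by which genes were kept is not given in the sources used here.

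Hox genes encode homeodomain transcription factors that set position along the body axis in the embryo, and those of the HoxA cluster are also active in blood stem and progenitor cells and are switched down as T cells mature. TALE proteins, the homeodomain factors of the PBX, MEIS, PKNOX and TGIF families, bind DNA together with HOX proteins or with each other and give the complex its choice of sites. In human T cell acute lymphoblastic leukemia (T-ALL), a subset of cases is known for high HOXA and MEIS1 expression.

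RNA was sequenced from 15 mouse T cell leukemia lines of the FVB/NJ strain, 1 library per line, grown out from thymic cells of moribund mice. All lines lack *E2a* in the germline, 8 of them (DKO, genotype E2a-/-LefF/F LckCre+) also carry floxed *Lef1* alleles deleted by a Cre transgene that is driven by the T cell promoter *Lck* and is active from an early thymocyte stage, and the other 7 (E2a-/-) do not. The lines were cultured without any treatment in serum-containing medium with mercaptoethanol, so each library describes leukemia cells established in culture and not the thymus. The single contrast of the design, DKO against E2a-/-, asks how leukemias that arose without LEF1, an HMG-box factor of the TCF/LEF family, differ from those that arose with it.

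Reads on listed genes ranged from 4847970 in DKO79.9 to 21681586 in SKO95, and 3 reads correspond to between 0.138 and 0.618 CPM. *Lef1* itself was 103 to 210 CPM in the DKO lines and 668 to 1558 CPM in 6 E2a-/- lines, whereas the library labelled SKO132, an E2a-/- line, had 59.0 CPM, below every DKO line. Results for *Pbxip1*, *Hoxa13* and the pair of *Hoxa13* and *Pbx2* are therefore also given without SKO132. *Tcf3*, the gene of E2A, still gave 117 to 243 CPM over all lines, and whether these reads lie outside the deleted part was not tested. All 15 T lineage markers examined were listed, with summed levels between 7430 and 8714 CPM in the DKO lines and between 4577 and 7556 CPM in the others. *Tcf7* had the highest mean of the 15 (2862 CPM in DKO and 1878 CPM in E2a-/- lines). *Cd2*, *Cd5*, *Cd7*, *Ptcra* and *Rag2* were between 0.0483 and 0.496 CPM in their lowest lines, so the sums do not describe each marker. Of the markers of other cells, 1 of 7 B lineage, 2 of 9 myeloid, 3 of 6 progenitor, 0 of 4 erythroid, 4 of 7 stromal, endothelial or epithelial and 2 of 4 NK or innate genes were listed, with *Csf1r*, *Cd34* and *Ncr1* among those without a row. The listed ones included *Kit* (up to 173 CPM) and *Mecom* (up to 76.9 CPM) of the progenitor list. *Zbtb16*, the innate-like lymphocyte factor PLZF, was 0 to 15.5 CPM in the DKO lines and 0 to 70.7 CPM in the others (log2 fold change -2.76, limma adjusted p = 0.268). The other listed NK or innate gene, *Klrb1c*, was 0 to 1.37 CPM in the DKO lines and 0 to 0.276 CPM in the others. Its log2 fold change had the other sign, at 0.40 (limma adjusted p = 0.518). The summed stromal, endothelial and epithelial markers lay between 146 and 1190 CPM in the DKO lines and reached 692 CPM in the E2a-/- lines, through *Col1a2* and *Pdgfrb*, and their part in the results below was not tested. In bulk RNA, fewer cells with a transcript and less transcript per cell cannot be told apart.

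*Pbxip1* was the listed member that differed most between the genotypes. It encodes a PBX-binding protein, also called HPIP, that keeps PBX from binding DNA with HOX partners. In the DKO lines *Pbxip1* was 0.0483 CPM at the lowest, 0.525 at the median and 9.78 at the highest, and in the E2a-/- lines it was 7.88, 22.0 and 40.5 CPM. The 7 DKO lines other than DKOTu3 lay between 0.0483 and 0.831 CPM, from 1 to 17 reads, below every E2a-/- line. DKOTu3, at 9.78 CPM (lower counting limit 8.42 CPM), was above SKO95 at 7.88 CPM (upper counting limit 9.15 CPM; 95% Poisson intervals) and below the other 6 E2a-/- lines, so the groups overlapped in this pair only. The DKO mean was 1.63 ± 3.31 CPM (SD, n = 8) and the E2a-/- mean 21.9 ± 11.3 CPM (SD, n = 7), a ratio of 13.5.

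On the log2(CPM + 1) scale, which understates changes of genes with low CPM, *Pbxip1* was lower in DKO by a log2 fold change of -3.47 (SE 0.46, 95% interval -4.45 to -2.49), with an adjusted p of 0.00383 by limma (Benjamini-Hochberg, over all 12545 genes). It was called at an adjusted p under 0.01, the threshold that the study applied to edgeR statistics rather than to limma. Of all genes, 0.0478% were called and 0.0239% were called lower in DKO, and of the 5 listed members 1 was called lower and 0 higher. At an unadjusted limma p under 0.05, 2 members were higher and 1 lower, against 4.33% and 5.83% of all genes (10.2% in all). No listed member had groups without overlap (0 of 5), as 0.175% of all genes had. Since the members were chosen with earlier results known, these shares are background and not a test of the set. The exact permutation test of *Pbxip1* over all splits of the lines gave p = 0.000466, two-sided, where 0.000155 is the smallest p it can give, and 0.133 after adjustment over all genes.

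The call lay close to its threshold, while the direction was the same in all 30 alternative fits computed. Without DKOTu3 the mean of the other 7 DKO lines was 0.465 ± 0.310 CPM (SD), and the log2 fold change was -3.83 with an limma adjusted p of 5.38e-05. Without the library labelled SKO132, which had the highest *Pbxip1* of all lines (40.5 CPM), it was -3.30 with an limma adjusted p of 0.00569. Leaving out each line in turn kept the call in 6 of 15 fits, and the limma adjusted p passed 0.01 without DKO102.4 (0.0105), DKO170.2 (0.0131), DKO192.3 (0.0115), DKO241 (0.0136), DKO713 (0.0125), SKO115.2 (0.0105), SKO137.1 (0.0145), SKO156.6 (0.0109) or SKO186.5 (0.0132). On the recovered reads, the adjusted p was 0.124 by the edgeR quasi-likelihood test and 0.000586 by DESeq2. By the edgeR likelihood ratio test it was 0.00463 with and 0.00514 without TMM scaling.

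**Figure D1:**
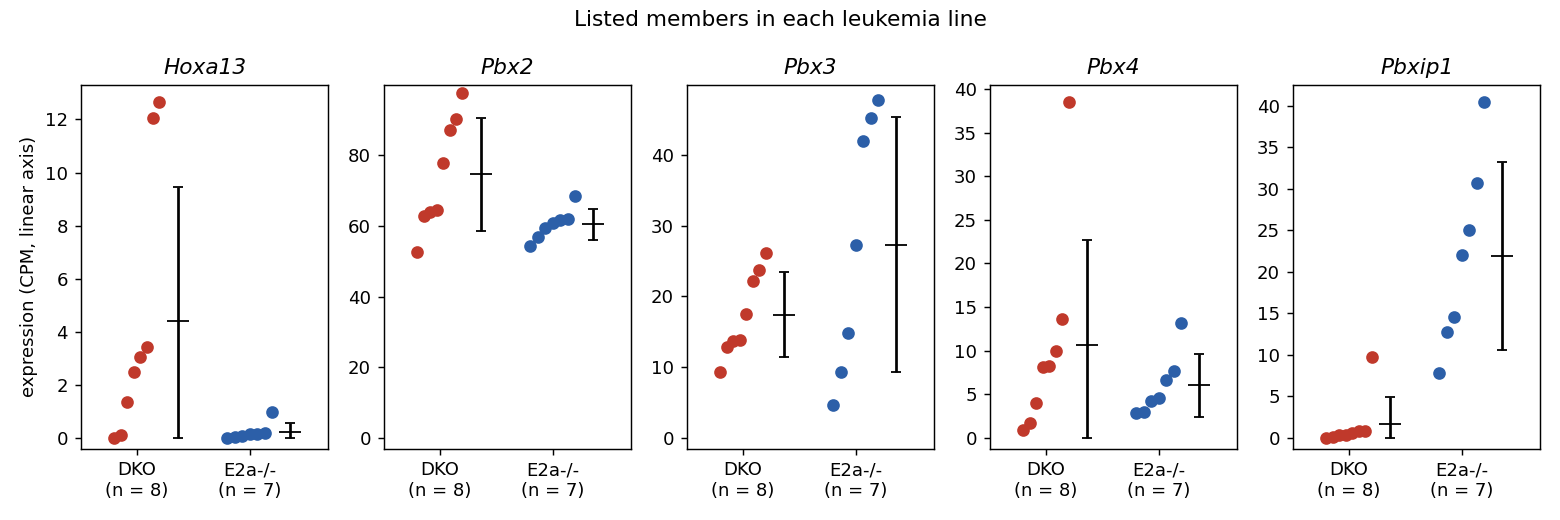
Expression in CPM (linear vertical axes, a scale for each gene) of the 5 listed members, with 1 point per line in DKO (red, n = 8) and E2a-/- (blue, n = 7), ordered by value, and a bar for the mean ± SD cut at 0. *Pbxip1* points of DKO lie at or below 0.831 CPM except for DKOTu3 at 9.78, *Hoxa13* is spread from 0 to 12.7 CPM in DKO, and the *Pbx2*, *Pbx3* and *Pbx4* ranges overlap.

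*Hoxa13* was the one HoxA gene with a row. It is the most posterior gene of the cluster and is known for its role in limb, gut and urogenital development. In the DKO lines *Hoxa13* was 0 CPM at the lowest, 2.76 at the median and 12.7 at the highest, and in the E2a-/- lines it was 0, 0.138 and 0.993 CPM. DKO192.3 (12.7 CPM, 271 reads) and DKO241 (12.1 CPM, 227 reads) were highest, followed by DKO170.2 (3.45), DKOTu3 (3.05), DKO79.9 (2.47) and DKO713 (1.35), and these 6 DKO lines were above every E2a-/- line. DKO102.4 had 2 reads and DKO548 none, which allows up to 0.173 CPM by the limit of 3 reads. Among the E2a-/- lines, only SKO132 (18 reads) and SKO95 (4 reads) had more than 3 reads.

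The DKO mean of *Hoxa13* was 4.39 ± 5.08 CPM (SD, n = 8) and the E2a-/- mean 0.224 ± 0.345 CPM (SD, n = 7), with a log2 fold change of 1.60 (SE 0.52, 95% interval 0.50 to 2.70). The limma adjusted p was 0.276, so *Hoxa13* was not called by limma, and its unadjusted exact permutation p was 0.0124. The study, which used edgeR at an adjusted p under 0.01, names *Hoxa13* among the genes increased in its DKO lines. By DESeq2 on the recovered reads the adjusted p was 0.00488, under the threshold that 1.41% of genes passed there (0.654% higher and 0.757% lower in DKO), whereas the edgeR likelihood ratio test with TMM scaling gave 0.0245 and the quasi-likelihood test 0.177. Without the library labelled SKO132, the 6 remaining E2a-/- lines had 0.0964 ± 0.0693 CPM (SD), and the log2 fold change was 1.72 with an limma adjusted p of 0.182. No E2a-/- line reached the 1.01 CPM of *Hoxa13* that every listed gene reaches in at least 1 line. *Hoxa13* may therefore have a row only through its DKO lines, and its p-values are not independent of how genes were kept.

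The PBX proteins are the classical partners of HOX factors, and *Pbx2* had the highest level of the listed members. In the DKO lines *Pbx2* was 52.7 CPM at the lowest, 71.2 at the median and 97.6 at the highest, and in the E2a-/- lines it was 54.4, 60.7 and 68.4 CPM. DKO192.3 (97.6), DKO170.2 (90.2), DKO79.9 (87.2) and DKO241 (77.7) were above every E2a-/- line, while DKO548 (52.7) was below all of them. The mean was 74.6 ± 15.9 CPM (SD, n = 8) and 60.4 ± 4.44 CPM (SD, n = 7), a log2 fold change of 0.27 (SE 0.12, 95% interval 0.01 to 0.54), with an limma adjusted p of 0.468 and an unadjusted exact permutation p of 0.0479. The range of the DKO lines enclosed that of the E2a-/- lines. *Pbx2* overlaps *Gpsm3* by 489 bp on the same strand in the GENCODE annotation, and reads there may be shared or dropped in counting.

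*Pbx3*, the PBX gene most often linked to HOXA9 in human leukemia, varied more within E2a-/- than between genotypes. It was 9.27 CPM at the lowest, 15.7 at the median and 26.1 at the highest in DKO, and 4.61, 27.2 and 47.7 CPM in E2a-/-. SKO186.5 (47.7), SKO156.6 (45.2), SKO137.1 (42.0) and the library labelled SKO132 (27.2) were above every DKO line, and SKO115.2 (4.61) was below every DKO line. SKO156.6 and SKO186.5 are the most alike pair of lines over all genes (Spearman's rho 0.987), and their *Pbx3* levels were close as well. The log2 fold change was -0.33 (SE 0.43, 95% interval -1.25 to 0.60, limma adjusted p = 0.827, exact permutation p = 0.491). It was -0.66 without SKO115.2, -0.17 without SKO137.1, -0.15 without SKO156.6 and -0.14 without SKO186.5, and -0.62 by DESeq2. Without DKO79.9 it was -0.22, and it turned to 0.075 when SKO132 and DKO79.9 were left out and SKO156.6 and SKO186.5 were averaged, a setting chosen after seeing the data. The antisense gene *C79798*, which is not listed, overlaps 16670 bp of *Pbx3*, and whether reads were counted by strand is not given in the sources used here.

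*Pbx4* encodes a PBX protein best known from testis. It was 0.918 CPM at the lowest, 8.21 at the median and 38.5 at the highest in DKO, and 2.90, 4.56 and 13.1 CPM in E2a-/-. DKO79.9 (38.5) and DKO241 (13.6) were above every E2a-/- line, and DKO713 (0.918) and DKO548 (1.67) were below every one. The log2 fold change was 0.29 (SE 0.54, 95% interval -0.86 to 1.44, limma adjusted p = 0.887, exact permutation p = 0.631). Without DKO79.9, the line with the fewest reads, it was -0.044, and the mean of the other 7 DKO lines was 6.66 ± 4.63 CPM (SD).

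Divided by the exon length of each gene, the mean level over the 15 lines was 18.7 CPM per kb for *Pbx2*, 3.83 for *Pbx4*, 3.60 for *Pbx3*, 2.37 for *Pbxip1* and 0.990 for *Hoxa13*. This order held in neither genotype. The mean level of *Pbxip1* was the lowest of the 5 in DKO, at 0.349 CPM per kb beside 1.78 for *Hoxa13*, and stood after *Pbx2* in E2a-/- lines, at 4.69 CPM per kb. *Pbx4* and *Pbx3* had mean levels of 4.80 and 2.85 CPM per kb in DKO and 2.72 and 4.46 in E2a-/- lines. Their order in DKO rested on DKO79.9, without which *Pbx3* had 3.04 CPM per kb and *Pbx4* slightly less. Over single lines the ranges of the members other than *Pbx2* overlapped widely. Per kb, *Pbx4* in DKO79.9 also lay within the range of *Pbx2*. The spread over lines set the members apart in another way: the SD of log2(CPM + 1) over the 15 lines was 2.01 for *Pbxip1*, larger than for 98.0% of all genes, and 1.32 for *Hoxa13*, larger than for 91.4%. It was 1.09 for *Pbx4*, 0.88 for *Pbx3* and 0.27 for *Pbx2*, larger than for 87.5%, 82.6% and 29.2% of genes.

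*Hoxa13* and *Pbx2* varied together over the 15 lines pooled. Of the 10 pairs of listed members, this was the one pair with an adjusted p under 0.05, with Pearson's r = 0.84 (permutation p = 0.00036, adjusted 0.0036) and Spearman's rho = 0.89 (permutation p = 6e-05, adjusted 0.0006) of log2(CPM + 1) over 15 lines. These permutations ignored genotype, and both genes had higher means in DKO. *Hoxa13* may have a row only through its DKO lines, and this limit holds for the pooled p-values too. Within the 8 DKO lines r was 0.77 (exact p = 0.0296) and rho 0.83 (exact p = 0.0154). Neither genotype alone had a pair past 0.05 after adjustment over the 10 pairs. Within the 7 E2a-/- lines r was 0.78 (exact p = 0.0474) and rho 0.68 (exact p = 0.110), but without the library labelled SKO132 r was 0.23 (exact p = 0.647), and the other 6 lines had at most 4 *Hoxa13* reads each.

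Leaving out DKO192.3 and DKO241, the lines farthest from the median of *Hoxa13*, r over the remaining lines was 0.81 (permutation p = 0.00105). With any 1 line left out, r of this pair stayed between 0.76 and 0.88. *Hoxa13* and *Pbx2* were negatively related to *Pbxip1* over all lines (r = -0.51 for both pairs, adjusted permutation p = 0.139), and these relations passed 0.05 only without DKO548 (r = -0.63, adjusted permutation p = 0.0488, and r = -0.69, adjusted permutation p = 0.0338). Within the DKO lines they were 0.09 and -0.15, so the pooled values did not hold within genotype.

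**Figure D2:**
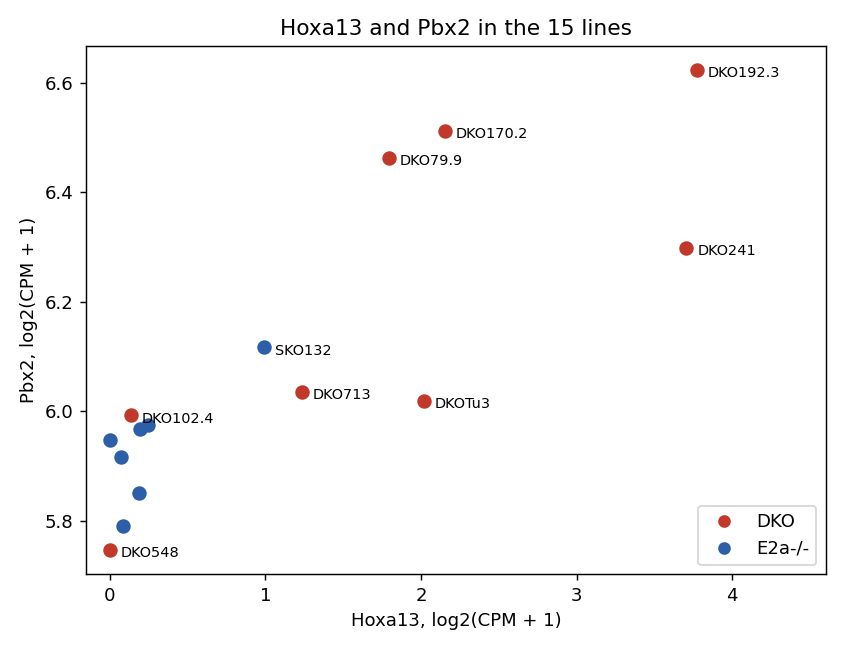
*Hoxa13* (horizontal axis) and *Pbx2* (vertical axis) as log2(CPM + 1), 1 point per line, with DKO lines in red and E2a-/- lines in blue; the DKO lines and SKO132 are named. The E2a-/- lines other than SKO132 lie together at the left with DKO102.4 and DKO548, and the 4 lines with the highest *Pbx2* (DKO192.3, DKO170.2, DKO79.9 and DKO241) are among the 5 with the highest *Hoxa13*.

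Stretches upstream of the starts of *Pbxip1*, *Hoxa13* and *Pbx2* are shown because the first is the member called and the others are the pair that varied together, and because LEF1, targeted in the DKO lines, and E2A, targeted in all lines, bind short known motifs. Each is the 250 bases before the RefSeq start (GRCm38.p6), 5′ to 3′ on the strand of the gene, with CG dinucleotides in capitals. *Pbxip1* is at chr3:89436454-89436703 (plus strand), *Hoxa13* at chr6:52260881-52261130 (minus strand) and *Pbx2* at chr17:34592009-34592258 (plus strand).
Pbxip1: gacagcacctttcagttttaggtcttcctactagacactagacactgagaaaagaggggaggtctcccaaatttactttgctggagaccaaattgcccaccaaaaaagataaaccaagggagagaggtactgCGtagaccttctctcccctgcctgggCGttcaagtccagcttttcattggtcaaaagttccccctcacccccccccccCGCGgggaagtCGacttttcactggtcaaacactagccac
Hoxa13: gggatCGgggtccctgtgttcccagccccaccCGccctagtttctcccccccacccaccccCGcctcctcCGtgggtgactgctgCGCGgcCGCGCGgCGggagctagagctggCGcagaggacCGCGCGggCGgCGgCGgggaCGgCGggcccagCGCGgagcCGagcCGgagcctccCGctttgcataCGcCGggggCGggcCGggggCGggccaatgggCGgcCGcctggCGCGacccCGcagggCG
Pbx2: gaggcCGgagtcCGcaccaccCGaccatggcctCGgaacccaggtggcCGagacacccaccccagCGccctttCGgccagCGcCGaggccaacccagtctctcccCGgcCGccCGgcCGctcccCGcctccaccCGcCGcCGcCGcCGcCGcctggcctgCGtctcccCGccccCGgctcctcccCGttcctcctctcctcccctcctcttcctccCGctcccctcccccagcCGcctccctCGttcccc
The stretches of *Hoxa13* and *Pbx2* hold 35 and 27 CG dinucleotides at a GC content of 80.0% and 77.6%, and that of *Pbxip1* holds 5 at 51.2%, beside medians of 6 and 52.4% over 32851 RefSeq promoters of the same length. The TCF/LEF core, searched as CTTTGA or CTTTGT on both strands, is in none of the 4 listed members with a RefSeq promoter (these 3 and *Pbx4*) and in 27.6% of all promoters. The E-box, searched as CAGCTG or CAGGTG on both strands, is in 1 of the 4, *Pbx2*, and in 27.7% of all promoters. The absence of these letters concerns this window alone.

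Of the other Hox genes and transcripts of the Hox loci, 41 are in the annotation and 2 have a row, *Hoxb4* and *Hoxd8*. *Hoxd8* was 49.5 CPM (1025 reads) in DKO713 and at most 2.66 CPM in the other DKO lines, and 3.76 CPM (70 reads) in SKO163.5 and at most 0.276 CPM in the other E2a-/- lines. *Hoxb4*, a factor of stem cell self-renewal, was highest in SKO95 (3.36 CPM) and SKO137.1 (2.61 CPM) and at most 0.631 CPM in any DKO line. Each listed Hox gene was therefore highest in different lines, *Hoxa13* in DKO192.3 and DKO241, *Hoxd8* in DKO713 and *Hoxb4* in SKO95. Neither *Hoxd8* (log2 fold change 0.96, limma adjusted p = 0.668) nor *Hoxb4* (-0.67, limma adjusted p = 0.504) was called, and without DKO713 the log2 fold change of *Hoxd8* was 0.34.

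Of 14 other TALE genes 5 are listed. *Meis2*, a paralog of *Meis1*, had reads in a part of the DKO lines: DKO548 had 22.0 CPM, DKOTu3 18.3, DKO713 17.3 and DKO102.4 14.6, while the other 4 DKO lines had 0 to 0.191 CPM, or at most 3 reads. In the E2a-/- lines *Meis2* was at most 0.0552 CPM, no more than 1 read each. The log2 fold change was 2.15 (SE 0.78, limma adjusted p = 0.353, unadjusted exact permutation p = 0.0297), and on the recovered reads the adjusted p was 2.11e-06 by DESeq2, 0.000994 by the edgeR likelihood ratio test without TMM scaling and 0.0871 by the quasi-likelihood test. Like *Hoxa13*, *Meis2* reached 1.01 CPM in DKO lines only, so the same limit holds for these p-values.

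Set beside *Hoxa13*, the line with the most *Meis2*, DKO548, had no *Hoxa13* read, and DKO102.4 had 0.0978 CPM of *Hoxa13*. DKO713 and DKOTu3 had both genes, at 1.35 and 3.05 CPM of *Hoxa13*. The lines highest in *Hoxa13*, DKO192.3 and DKO241, had 0.0467 and 0.159 CPM of *Meis2*, or 1 and 3 reads. *Meis3* was 0.173 CPM at the lowest, 14.1 at the median and 67.0 at the highest in DKO, and 12.5, 15.6 and 46.5 CPM in E2a-/-, with DKO548 lowest and DKO79.9 highest (log2 fold change -0.97, limma adjusted p = 0.655). It was -0.50 without DKO548, -1.33 without DKO79.9 and -0.38 by DESeq2.

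*Pknox1*, which encodes the PBX partner PREP1, and the repressor genes *Tgif1* and *Tgif2* were expressed in every line. Their median levels over the 8 DKO and the 7 E2a-/- lines were 72.7 and 81.7 CPM for *Pknox1*, 45.2 and 38.5 CPM for *Tgif1*, and 30.7 and 30.0 CPM for *Tgif2*. None of the 3 was called (limma adjusted p = 0.756, adjusted p = 0.965 and adjusted p = 0.770), and the direction of *Tgif1* depended on single lines.

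**Figure D3:**
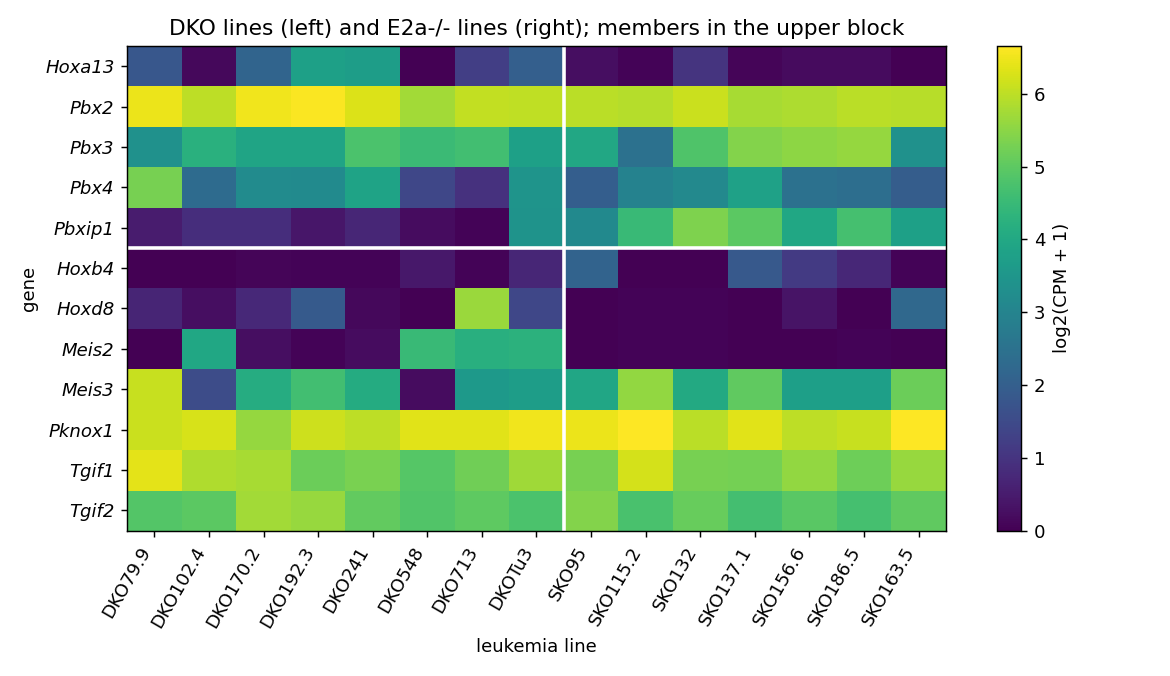
Levels of the 12 listed Hox and TALE genes as log2(CPM + 1) (colour scale from 0), with genes in rows (members above the white line) and lines in columns (DKO left, E2a-/- right). *Pbx2* and *Pknox1* are high in every line, *Pbxip1* is dark in 7 of 8 DKO lines, *Meis2* is bright in 4 DKO lines and *Hoxd8* in DKO713.

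**Figure D4:**
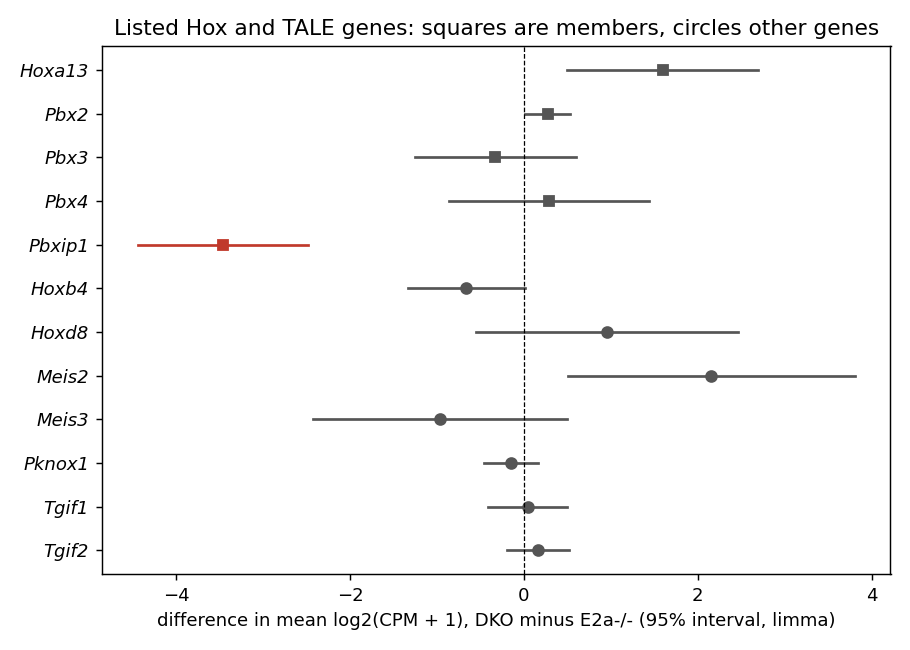
Difference in mean log2(CPM + 1) between DKO and E2a-/- lines with its 95% interval from limma for the 12 listed Hox and TALE genes, with squares for members and red for the gene called. The interval of *Pbxip1* is -4.45 to -2.49, and the intervals of *Hoxa13*, *Pbx2* and *Meis2* leave out 0 before adjustment.

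The genes whose levels over the 15 lines were most like those of each member were found among the 11566 other genes compared, as a description. For *Pbxip1* they were *Ptgfrn* (r = 0.89), which encodes a membrane protein and is also on chromosome 3, *Cebpb* (r = 0.89), a bZIP transcription factor, and *Shcbp1* (r = 0.88). For *Hoxa13* they were *Actr3b* (r = 0.92), *Glis1* (r = 0.90), a zinc finger factor, and *Anpep* (r = 0.88), the aminopeptidase CD13. For *Pbx2* they were the death receptor gene *Tnfrsf21* (r = 0.87), *Myl10* (r = 0.86) and *Zfp467* (r = 0.86). *Pbx3* was most like the histone methyltransferase gene *Suv39h2* (r = 0.86), *Rrm1* (r = 0.85), a subunit of ribonucleotide reductase, and *Lactb* (r = 0.84), and *Pbx4* was most like *Mrpl24* (r = 0.86), *Decr2* (r = 0.85) and *Nme4* (r = 0.84).

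Of 34 genes for regulators that keep Hox genes on or off, 31 were listed. These encode chromatin proteins, such as those of the MLL complex and the Polycomb complexes, while the CDX homeodomain genes had no row. None of the 31 was called by limma. At an unadjusted limma p under 0.05, 4 were lower in DKO (12.9% of the list, beside 5.83% of all genes) and 0 higher (beside 4.33%), and the median log2 fold change of the 31 was -0.09 beside -0.02 over all genes. The 3 with the largest differences were *Cbx7*, a Polycomb reader (log2 fold change -1.25, limma adjusted p = 0.327), *Kdm6a*, the H3K27 demethylase UTX (-0.75, limma adjusted p = 0.249), and *Aff1*, a subunit of the super elongation complex (-0.46, limma adjusted p = 0.444). The DKO mean of *Cbx7* was 10.8 ± 5.32 CPM (SD, n = 8) and its E2a-/- mean 25.7 ± 12.9 CPM (SD, n = 7), and 4 DKO lines were below every E2a-/- line.

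Of 14 genes known as downstream of HOXA9 and MEIS1, 10 were listed, none was called by limma, and 1 was lower and 0 higher at an unadjusted limma p under 0.05, the shares over all genes being those given above, with a median log2 fold change of -0.18. The largest differences were those of *Id2*, an inhibitor of E proteins (-1.34, limma adjusted p = 0.460), *Pim1*, a kinase (-0.53, limma adjusted p = 0.577), and the receptor *Igf1r* (0.53, limma adjusted p = 0.655). In the neighbourhood of the HoxA cluster, 8 of 9 genes were listed, 0 were called, 0 passed an unadjusted limma p of 0.05, and the median log2 fold change was -0.03. The largest differences there were *Jazf1* (0.40), *Snx10* (-0.37) and *Nfe2l3* (0.21).

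Positions in the table are not those of GRCm38 and are given as the table lists them. *Pbxip1* is at 89240628 to 89254874 of chromosome 3, *Hoxa13* at 52207693 to 52210874 of chromosome 6, *Pbx2* at 34728211 to 34734345 of chromosome 17, *Pbx3* at 34026977 to 34228660 of chromosome 2 and *Pbx4* at 72356523 to 72397062 of chromosome 8. Of the 6 nearest listed genes around *Pbxip1*, none was called by limma and 1, *Pygo2*, a coactivator of the Wnt pathway, was lower at an unadjusted limma p of 0.00133 (log2 fold change -0.50, adjusted 0.140). Among the 6 around *Hoxa13*, which all lie outside the HoxA cluster since its other genes have no row, none was called, none passed an unadjusted limma p of 0.05, and log2 fold changes lay between -0.37 and 0.40. The genes around *Pbx2*, *Pbx3* and *Pbx4* included none called. At an unadjusted limma p under 0.05 there were 2 of 6 around *Pbx2*, 0 of 6 around *Pbx3* and 1 of 6 around *Pbx4*. The class II gene *H2-Eb2* near *Pbx2* had the largest difference (-2.33, limma adjusted p = 0.0671).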

How the data were processed

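RNA from 15 leukemia lines (8 DKO, 7 E2a-/-) was sequenced with 1 library per line. Per the labels and the study's methods, the authors trimmed reads with Trimmomatic 0.33, aligned them with TopHat2 2.1.0 to mm10, counted them on genes with HTSeq 0.6.1 and scaled them with edgeR. The deposited values are CPM of reads assigned to genes, made by the authors without a further factor between libraries, which leaves differences in RNA composition uncorrected. Division by the smallest nonzero CPM of a line gave whole numbers (100.0% of values, within 0.01), which were taken as reads. Only 190 of 12172 genes with a symbol start within 1 bp of their GRCm38 position.

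Groups were taken from the labels. limma 3.58.1 (R 4.3.3) was fitted to log2(CPM + 1) of all 12545 genes and 15 lines with a variance trend, genotype as the only term, 2-sided tests and Benjamini-Hochberg adjustment over all genes, at 0.01. Single genes were also tested by exact permutation over all 6435 splits into 8 and 7, and pairs of members by 100000 permutations, in Python 3.11.15 with scipy 1.17.1 (numpy 2.4.6). Within groups under 10 lines, permutations were exact. As alternatives, the pseudocount was set to 0.1 or 2, genes were required to average 1 CPM, the trend was dropped, array weights or 2 scalings were used, the threshold was 0.05, a log2 fold change of 1 was also required, single lines were left out, SKO156.6 and SKO186.5 were averaged, values were centred per chromosome and, on recovered reads, edgeR 4.0.16 and DESeq2 1.42.0 were run. A setting without SKO132 and DKO79.9 and with that pair averaged, and the neighbouring genes, were added after seeing the data. The tests were tested on simulated data.

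Named genes are the 9 members, the 3 genes (averaging 1 CPM or more) most like each listed member by Pearson's r, and from each list all genes listed if 6 or fewer, otherwise the 3 with the largest absolute log2 fold change. *Tcf7*, *Cd2*, *Cd5*, *Cd7*, *Ptcra*, *Rag2*, *Csf1r*, *Cd34*, *Ncr1*, *Kit*, *Mecom*, *Zbtb16*, *Klrb1c*, *Col1a2*, *Pdgfrb*, *Pygo2* and *H2-Eb2* were named after their values or absence were seen. The members and lists were chosen with earlier results of these data known. Symbols and exon lengths came from GENCODE, promoters from RefSeq, which matched 4 of 5 listed members and 10 of 12 listed Hox and TALE genes. Nothing says that lines come from separate mice, so p-values measure the spread between lines. Limits of 3 reads cover counting error alone, because reads were counted without molecular identifiers.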

Additional observations from a re-analysis of the deposited data

Results flagged for a closer look

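In 24 comparisons of the highest or lowest line with the rest of its genotype (12 listed Hox and TALE genes in 2 genotypes), 7 values, from 6 lines, stood apart by Dixon's test of the gap to the next line. For normally distributed values the test would flag about 1 in 20 comparisons, or 1.2. It was applied to CPM on the linear scale, many of them near 0, and all 7 values were the highest of their genotype. Whether CPM meet that condition was not tested, so 1.2 is no measure of chance here. Among the members, *Pbxip1* was 9.78 CPM in DKOTu3 and 0.0483 to 0.831 CPM in the other DKO lines. *Hoxa13* was 0.993 CPM in SKO132 and 0 to 0.184 CPM in the other E2a-/- lines. *Pbx4* was 38.5 CPM in DKO79.9 and 0.918 to 13.6 CPM in the other DKO lines.

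Among the other genes, *Hoxd8* stood apart in both genotypes, at 49.5 CPM in DKO713 beside 0 to 2.66 CPM in the other DKO lines, and at 3.76 CPM in SKO163.5 beside 0 to 0.276 CPM in the other E2a-/- lines. *Meis3* was 67.0 CPM in DKO79.9 and 0.173 to 24.0 CPM in the other DKO lines. *Tgif1* was 74.6 CPM in SKO115.2 and 35.2 to 48.5 CPM in the other E2a-/- lines. DKO79.9, which had the fewest reads, stood apart in *Pbx4* and *Meis3*.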

How the results depend on the processing

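The number of members called at an adjusted p under 0.01 was 1 by limma (*Pbxip1*). It was 0 with a pseudocount of 0.1, by the edgeR quasi-likelihood test and in the setting chosen after seeing the data (without SKO132 and DKO79.9, with SKO156.6 and SKO186.5 averaged; *Pbxip1* limma adjusted p = 0.0195), and 2 by DESeq2 (*Pbxip1* and *Hoxa13*). With each line left out it was 0 to 1. Counts of 0 by the exact permutation test, for members and for all genes, say nothing here. At least 195 genes would have to pass together for any to pass after adjustment, and more at p-values above the smallest of the test. Over all genes the count of 6 became 29 with array weights, 19 at an adjusted p under 0.05, 1 by the quasi-likelihood test, 84 and 83 by the likelihood ratio test with and without TMM, 177 by DESeq2 and 22 in the added setting, and with each line left out it was 3 to 17. At an unadjusted limma p under 0.05 there were 1275 genes. The cause of these differences was not tested. No member pair passed within the DKO lines (0) or within the E2a-/- lines (0), where fewer lines enter, and 1 to 3 pairs passed with each line left out (3 without DKO548).

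The sign turned for *Pbx3* in the added setting (0.075), for *Pbx4* in that setting (-0.0022) and without DKO79.9 (-0.044), and for *Tgif1* in that setting (-0.14) and without DKO79.9 (-0.076), DKO102.4 (-0.0029) or SKO186.5 (-0.010). With each line left out the log2 fold change ranged from -0.66 to -0.14 for *Pbx3*, from -0.044 to 0.58 for *Pbx4* and from -0.076 to 0.17 for *Tgif1*. *Pbxip1*, *Hoxa13* and *Pbx2* kept their sign in all 30 alternatives. No paired analysis was possible because the labels give the lines no replicate numbers that both genotypes share. Depth limits *Hoxa13* in most E2a-/- lines and *Pbxip1* in some DKO lines, where values are at or under 3 reads.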
